A study of Mus musculus with 18 samples.

Results

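The clustered protocadherin genes lie side by side on mouse chromosome 18, and the region described here runs from 36.9 to 37.9 Mb in the mm10 build. It was chosen by position: it holds every gene whose symbol starts with Pcdha, Pcdhb or Pcdhg, and every peak of the 7 peak lists that falls inside it. That gave 58 member genes, beside 21887 protein-coding genes in the gene table: 14 in the alpha cluster, 22 in the beta cluster and 22 in the gamma cluster, where Pcdhgb8 is listed as a transcribed pseudogene. Of 207027 peaks in all lists together, 95 lay in the region.

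The study used CUT&RUN, in which an antibody directs a nuclease to a chromatin protein and the freed DNA is sequenced, on sorted DP thymocytes, the CD4+ CD8+ stage of T cell development. The mice were wild type (WT) or Satb1 knockout (KO); both groups had been given tamoxifen, which induced the knockout, so the drug is shared by controls and knockouts. Neither the strain, the ages of the mice nor the Cre driver is stated in the sources used here, and no source says whether replicates came from separate animals, so a p-value here reflects no more than how far these samples lie apart, which may be technical. Of 18 samples, 7 lists were analysed: 1 WT and 2 KO lists for CTCF, and 2 WT and 2 KO lists for SMC1A. Peak lists hold no RNA or read tracks, so neither the loss of Satb1 nor the DP identity of the cells could be checked in them.

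Clustered protocadherins are cell surface adhesion proteins best known from the nervous system, where each neuron expresses its own selection of them. In the alpha and gamma clusters each variable first exon has its own promoter and is spliced to constant exons at the cluster's 3′ end, whereas beta genes have no shared constant exons. In neurons CTCF and cohesin, the ring complex of which SMC1A is a core subunit, join chosen variable promoters to enhancers that lie past the 3′ ends of the clusters.

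The peaks were confined, but for 1, to the last part of the region. The WT CTCF list had 16 peaks, and the KO CTCF lists had 28 and 8. For SMC1A the WT lists had 11 and 10, and the KO lists 12 and 10. All 43 SMC1A peaks and 51 of the 52 CTCF peaks lay between the lower end of Taf7, a general transcription factor gene that stands between the beta and gamma clusters, and the region's end. The lists differ in length, from 22928 to 55750 peaks for CTCF and from 19882 to 28151 for SMC1A. With the peaks of both proteins merged, 22 of the region's 36 merged regions (61.1%) were found in only 1 list, beside 45.4% over the genome. The KO CTCF list of replicate 1 is the longest of all and held 14 of these 22. Local backgrounds were solved from the deposited values of peaks drawn from each list. The value marking off their lowest 1%, a stand-in for depth, was 1.02 in the WT CTCF list and 1.82 and 3.28 in the KO CTCF lists. For SMC1A it was 0.533 and 0.465 in WT, and 0.633 and 0.384 in KO. The part of depth and background in the peak numbers was not tested.

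**Figure D1:**
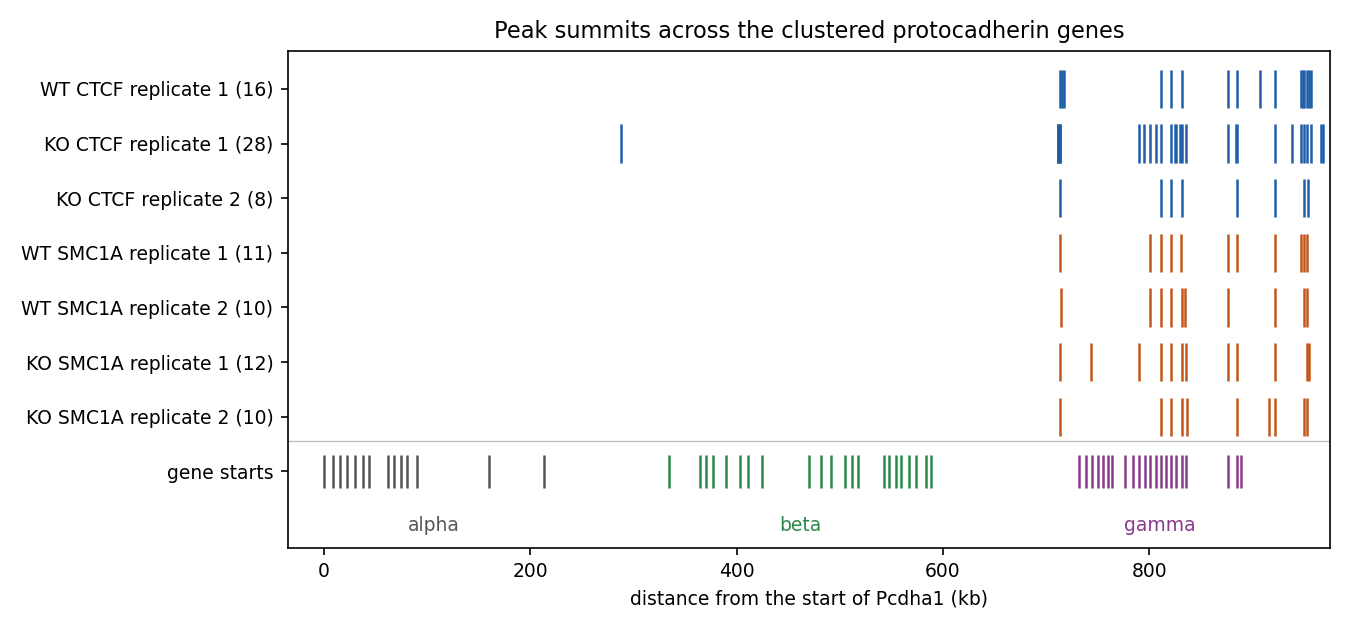
Each vertical line is the summit of 1 peak, plotted by its distance in kb from the start of Pcdha1, with 1 row per list (number of peaks in parentheses; CTCF in blue, SMC1A in orange) and the 58 gene starts in the bottom row. The alpha and beta clusters hold no line in any row, and the single line between them belongs to the KO CTCF list of replicate 1.

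The alpha cluster had no peak at all. None of its 14 variable starts, spread with margins of 5 kb over 223.4 kb, lay near a peak of either protein in any of the 7 lists. This includes the C-type genes Pcdhac1, 128312 bp from the nearest summit, and Pcdhac2, 74770 bp from it; in neurons the C-type genes are expressed more evenly than the rest. The stretch of 111.3 kb that follows, with the alpha constant exons and the span in which the alpha cluster's downstream enhancer is known to lie, had 1 peak. It was a CTCF peak of the KO list of replicate 1, at chr18:37218257-37218456, 46550 bp before the start of Pcdhb1. Its −log10 q was 1.59, which placed it at the 1.04 percentile of its own list, and its summit rested on an implied pile-up of 12 fragments over a background of 4.06. The WT list and the other KO list had no peak there. Where exactly the enhancer lies is not given in the sources used here, and whether this peak is in it cannot be stated.

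The beta cluster was likewise without peaks. All 22 starts, over 266.4 kb, had no CTCF or SMC1A peak within 500 bp in any list. Pcdhb1, which stands somewhat apart at the cluster's 5′ end, was 46550 bp from the nearest summit, that of the peak just described.

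In SMC1A the alpha and beta clusters therefore fell into 1 stretch without a peak, chr18:36803283-37643729, of 840.4 kb. It held the lower ends of 41 protein-coding genes, 36 of them protocadherins. Of 35200 stretches between merged SMC1A regions over the genome, 592 (1.68%) were longer. In the WT CTCF list the same stretch measured 840.3 kb, and 561 of 38968 stretches (1.44%) were longer. It measured 840.7 kb in the KO CTCF list of replicate 2, and the single peak of the other KO list parted it into 414.9 kb and 422.8 kb. The treatment of reads that match several similar genes is not given in the sources used here, and the similarity of the variable exons was not measured. A list shows no peak where too few fragments piled up: among 3000 peaks drawn per list the smallest implied pile-up was 6, 7 and 11 for CTCF (WT, then KO replicates 1 and 2) and 4 or 5 for SMC1A. Binding below such levels was not detectable.

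Between the beta and gamma clusters, 1 site was shared by all 7 lists. It spans chr18:37643635-37644708 at the upper end of Taf7 (chr18:37640491-37644204). Its CTCF −log10 q was 39.9 in WT and 115 and 3.86 in KO. Its SMC1A −log10 q was 12.8 and 8.05 in WT, and 23.6 and 14.6 in KO. These scores and the fold enrichments are the authors' own and are used here only to rank peaks within a list: the CTCF peak stood at the 91.6 percentile of the WT list, at 94.0 in KO replicate 1 and at 24.3 in KO replicate 2. The summits of the 4 SMC1A peaks lay ahead of the gamma cluster, at -17720 to -17455 bp from the start of Pcdhga1. The WT CTCF list had 2 further peaks there and the longest list 4, each of them in that list alone.

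The gamma cluster held the promoter peaks. Taking 500 bp on either side of each start as its promoter, 12 of the 58 members (20.7%) had a peak in at least 1 list, and all 12 were gamma genes. The share among protein-coding genes with a known strand was 48.0% (8389 of 17492 genes). Promoters with CTCF in all 3 CTCF lists numbered 4, against a share of 27.5% of the other genes. Promoters with SMC1A in all 4 SMC1A lists numbered 3, also against 27.5%. By list, CTCF marked 5 member promoters in WT and 11 and 4 in KO, which is 8.62%, 19% and 6.90% of the members. The same lists marked 42.3%, 46.3% and 28.0% of protein-coding promoters. SMC1A marked 6 and 5 member promoters in WT and 8 and 4 in KO, or 10.3%, 8.62%, 13.8% and 6.90%, beside 34.3%, 33.9%, 37.9% and 32.4% of protein-coding promoters. The members stood below the other genes in each of the 7 lists.

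**Figure D2:**
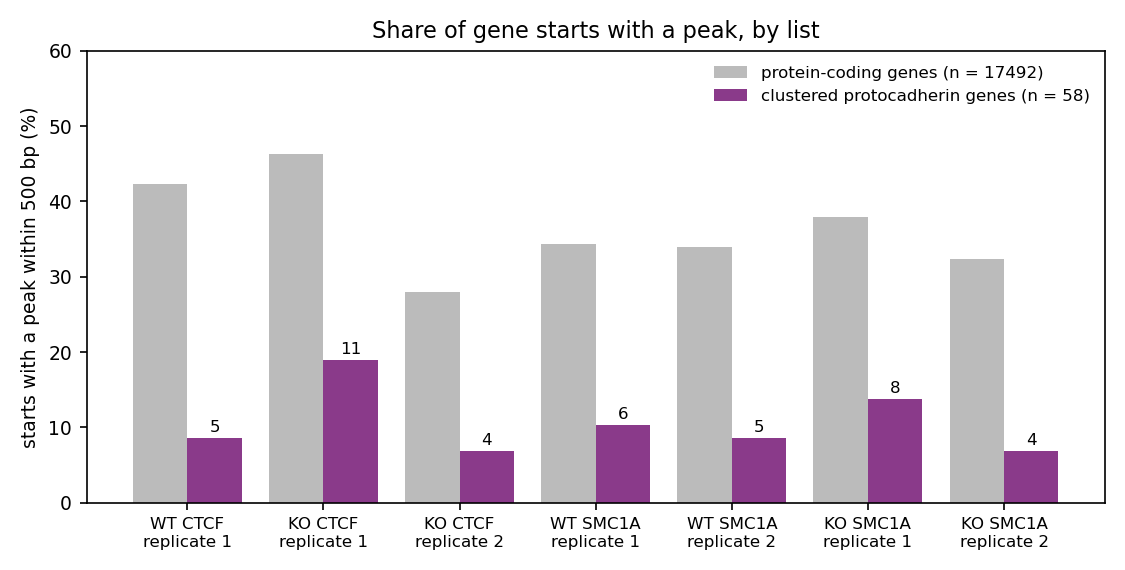
Bars give the percent of gene starts with a peak within 500 bp in each list, for 17492 protein-coding genes (grey) and for the 58 clustered protocadherin genes (purple, with the number of genes above the bar). The purple bars run from 6.90% to 19% and the grey bars from 28.0% to 46.3%.

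Peaks did not spread evenly over the gamma cluster either. The 9 genes ahead of Pcdhgb4, from Pcdhga1 to Pcdhga7, had a promoter peak in 1 of 63 gene and list pairs, an SMC1A peak of KO replicate 1 at Pcdhga3 (−log10 q 2.84). Of the 13 genes from Pcdhgb4 on, 11 had a peak in at least 1 list; Pcdhga10 and Pcdhgc5 had none. The A-type and B-type genes, named after the kinship of their variable exons, stand in alternation from Pcdhgb4 to Pcdhga12, with 5 of each. There the B-type promoters had a peak in 26 of 35 gene and list pairs (74.3%) and the A-type promoters in 5 of 35 (14.3%). In every list the B-type promoters with a peak outnumbered the A-type ones: 3 to 0 in WT CTCF, 5 to 4 and 3 to 0 in KO CTCF, 4 to 0 in both WT SMC1A lists, and 4 to 1 and 3 to 0 in KO SMC1A. This stretch was set after the values had been seen, and the genes share their lists, so no test is attached.

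**Figure D3:**
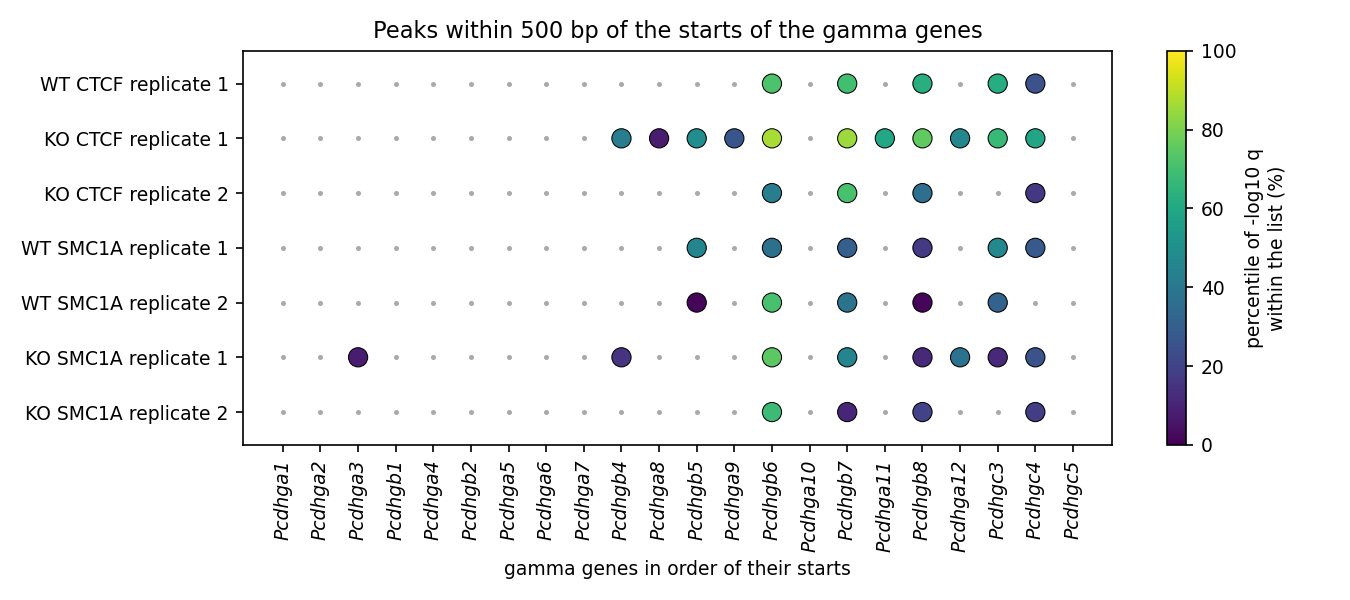
Each circle is a peak within 500 bp of a gamma gene's start (columns, in gene order) in 1 list (rows), coloured by the percentile of its −log10 q among all peaks of that list; small grey dots mark pairs with no peak. Filled columns at Pcdhgb6, Pcdhgb7 and Pcdhgb8 run through all 7 rows, and the 9 leftmost columns hold 1 circle.

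Pcdhgb6, Pcdhgb7 and Pcdhgb8 were the members with a promoter peak in all 7 lists, 3 of 58 (5.17%) beside 23.1% of protein-coding genes. At Pcdhgb6, whose start is at 37742094, the CTCF −log10 q was 15.6 in WT and 67.0 and 5.71 in KO, and the SMC1A −log10 q was 6.12 and 12.5 in WT and 16.4 and 10.5 in KO. At Pcdhgb7, which starts at 37751619, the CTCF values were 14.4 in WT and 59.5 and 11.3 in KO. Its SMC1A values were 5.35 and 5.80 in WT and 7.21 and 2.79 in KO. At the transcribed pseudogene Pcdhgb8 (start at 37761801) CTCF was at 11.3 in WT and 36.3 and 5.01 in KO, and SMC1A at 3.87 and 1.50 in WT and 3.08 and 3.70 in KO. Ranked within their own lists, the CTCF peaks stood at the 71.7 (WT), 86.8 and 41.9 (KO) percentiles at Pcdhgb6. They stood at 69.6, 84.9 and 70.9 at Pcdhgb7, and at 63.0, 75.8 and 35.7 at Pcdhgb8, in the same order. The SMC1A peaks ranked lower at Pcdhgb8, from 1.25 to 19.5, than at Pcdhgb6, from 36.5 to 74.7.

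The other promoters of this stretch had peaks in fewer lists. Pcdhgb4 had CTCF (7.84) and SMC1A (3.52) in KO replicate 1 only. Pcdhga8, Pcdhga9 and Pcdhga11 had a CTCF peak in KO replicate 1 alone, with −log10 q of 2.62, 4.95 and 16.9. Pcdhga12, the last A-type gene, had CTCF (9.51) and SMC1A (6.04) in KO replicate 1. These peaks came from the longest list of each protein, and the KO lists of replicate 2 had none of them.

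Of the C-type gamma genes, Pcdhgc3 (start at 37806410) and Pcdhgc4 (37815079) were marked and Pcdhgc5 (37819546) was not, its nearest summit lying 4096 bp away. Pcdhgc3 had CTCF at a −log10 q of 11.1 in WT and 24.0 in KO replicate 1, and none in KO replicate 2. Its SMC1A scores were 7.43 and 4.96 in WT and 3.08 in KO replicate 1, again with none in KO replicate 2, so the KO list of replicate 2 lacked a peak of either protein there. Pcdhgc4 had CTCF in all 3 lists (4.00 in WT, 15.8 and 3.12 in KO). It had SMC1A in WT replicate 1 (5.11) and both KO lists (4.69 and 3.66), and not in WT replicate 2.

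Most peaks lay close to the starts of the A-type and B-type genes and of Pcdhgc3, and those at Pcdhgc4 and Pcdhga12 lay further in. At A-type and B-type promoters the median CTCF summit was at -61 bp from the start, with 12 of 15 summits upstream and a range from -165 to 292 bp. The SMC1A summits there had a median of -32 bp, with 11 of 17 upstream and a range from -383 to 311 bp. At Pcdhga12, in KO replicate 1, the CTCF summit lay at 292 bp and the SMC1A summit at 311 bp. At Pcdhgc3 the 2 CTCF summits lay at 15 and 20 bp and the 3 SMC1A summits between -67 and 50 bp. At Pcdhgc4 the 3 CTCF summits lay between 243 and 297 bp and the 3 SMC1A summits between 304 and 371 bp, all inside the gene. The summits come from few promoters, seen again in several lists, and are given as a description. Past the promoter and up to 2500 bp into the genes, the stretch that holds most of a variable exon, 2 summits were found: CTCF of KO replicate 1 at Pcdhga11 (645 bp from its start) and SMC1A of KO replicate 2 at Pcdhga12 (880 bp).

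The highest-ranked site of the region lay past the gamma cluster, in the body of Diaph1 (chr18:37843601-37935622), which encodes an actin-nucleating formin. The known enhancers of the gamma and beta clusters lie downstream of the gamma constant exons and reach towards this gene; the sources used here do not give their positions. The site spans chr18:37883002-37885555 in CTCF, with its strongest summit 64078 bp past the start of Pcdhgc5. Its CTCF −log10 q was 116 in WT and 435 and 59.7 in KO, with the authors' fold enrichment at 36.7, 78.9 and 13.1 and implied pile-ups of 86, 270 and 79 fragments. That placed it at the 99.2, 99.6 and 98.7 percentiles of the 3 lists. SMC1A covered the same site in all 4 lists (chr18:37883368-37884203), with −log10 q of 35.9 and 36.1 in WT and 57.6 and 37.1 in KO, and pile-ups of 32, 31, 47 and 29. Its percentiles were 92.6 and 93.9 in the WT lists and 96.3 and 96.0 in the KO lists. The KO percentiles lay above the WT ones for SMC1A; this was not tested, and the percentile moves with list length.

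A second site in Diaph1, nearer the gamma cluster, was also in all 7 lists. It spans chr18:37852104-37852974 in CTCF, 32814 bp past the start of Pcdhgc5. The CTCF −log10 q was 23.1 in WT and 60.4 and 9.51 in KO. The SMC1A −log10 q was 24.0 and 13.4 in WT and 25.0 and 7.86 in KO. A further site at chr18:37880173-37881082 had CTCF in all 3 lists (10.4 in WT, 20.9 and 5.95 in KO). SMC1A was there in both WT lists (6.86 and 8.05) and in KO replicate 2 (4.44), not in KO replicate 1. Past the end of the gamma genes, at 37841873, and up to the region's end, CTCF had 7 peaks in WT and 8 and 3 in KO, while SMC1A had 4 and 3 there in WT and 3 and 4 in KO.

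**Figure D4:**
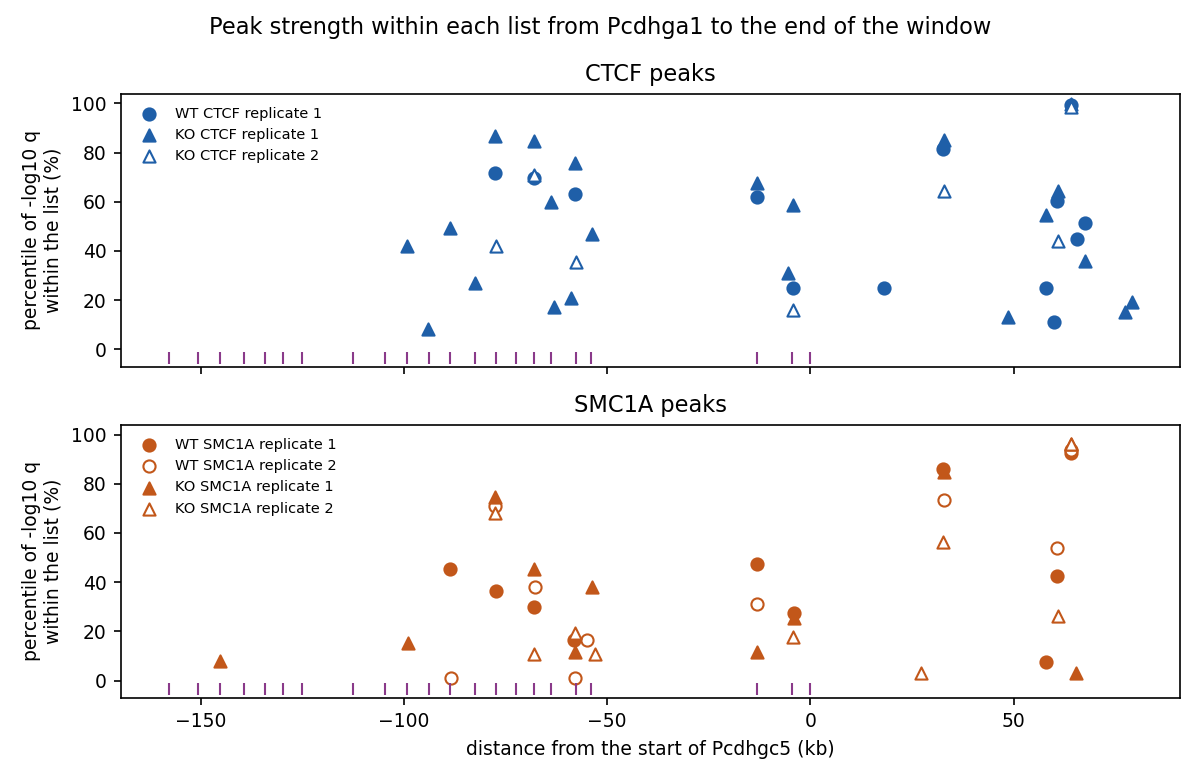
Each point is 1 peak, placed by the distance of its summit from the start of Pcdhgc5 in kb and by the percentile of its −log10 q within its own list; circles are WT, triangles KO, filled symbols replicate 1 and open symbols replicate 2, and the purple ticks are gene starts. The site 64078 bp past the start of Pcdhgc5 stands above all others in both panels, from 92.6 upwards.

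Taken over both proteins, the region had 36 merged regions, of which 6 (16.7%) were in all 7 lists, beside 14.9% of 67173 over the genome. The 6 were the Taf7 site, the promoters of Pcdhgb6, Pcdhgb7 and Pcdhgb8 and the pair of sites in Diaph1. At these 6 the mean SMC1A summit lay between -108.5 and 88.8 bp from the mean CTCF summit. The sites were picked for holding peaks of both proteins, so some nearness was given in advance. Single summits lay further apart: at Pcdhgb8 they ran from 37761418 to 37761680 for SMC1A and from 37761636 to 37761814 for CTCF. For CTCF alone, 8 of 32 regions (25.0%) were in all 3 lists, beside 27% over the genome. For SMC1A, 6 of 18 (33.3%) were in all 4, beside 35.0%.

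SMC1A peaks of the region mostly overlapped a CTCF peak. In the WT SMC1A lists 11 of 11 and 9 of 10 did so, and in the KO ones 11 of 12 and 8 of 10 (100%, 90%, 91.7% and 80.0%). The WT SMC1A peaks at Pcdhgb5 were counted through the KO CTCF list of replicate 1, as the WT CTCF list had no peak there. The genome-wide shares of the same lists were 95.8%, 93.8%, 95% and 96.3%. The KO mean minus the WT mean was -9.17 percentage points, with an exact two-sided permutation p of 0.67; for 2 lists against 2 the smallest possible is 0.33. The difference was within the spread of the lists, and with 1 list left out it ran from -15.0 (without KO replicate 1) to -3.33 (without KO replicate 2), with -4.17 without WT replicate 1. Against the WT CTCF list alone the difference was -12.1 percentage points. The 4 SMC1A peaks without CTCF in any list lay at Pcdhga3, on either side of the Pcdhga12 start and in Diaph1.

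The density of peaks in the region was not shown to change with the loss of Satb1. The region had 0.553 and 0.485 SMC1A peaks per 1000 peaks of the list in WT, and 0.426 and 0.483 in KO. Both KO values lay below both WT values, though KO replicate 2 and WT replicate 2 nearly met, and the exact permutation p was 0.33, the smallest this design allows. In limma, fitted over 1264 windows of 1 Mb, the log2 density was -0.19 ± 0.24 (SE, 2 WT and 2 KO lists) in KO relative to WT, with an adjusted p of 0.736. With 1 list left out the estimate was -0.10 without WT replicate 1 or KO replicate 1, and -0.29 without KO replicate 2 or WT replicate 2. Of these windows 6.49% were called. Within batch 1 the difference per 1000 peaks was -0.127 and within batch 2 it was -0.001, so the pooled difference rests on the first. For CTCF the region had 0.410 peaks per 1000 in WT and 0.502 and 0.349 in KO, and the limma estimate was 0.04 ± 0.36 (SE, 1 WT and 2 KO lists) with an adjusted p of 0.999. The single WT list is taken there to vary like the KO lists. Of 1602 CTCF windows 0% were called by limma, and 43 had an unadjusted p under 0.05.

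Some regions were present on one side only. For SMC1A, 1 of the 9 regions in both WT lists (11.1%) was in neither KO list, where 4.15% of such regions were lost over the genome. Of the 7 regions in both KO lists, 0 were in neither WT list, against 13.1% over the genome. The lost region was the Pcdhgb5 promoter, chr18:37730840-37731350. Its −log10 q was 7.31 in WT replicate 1 and 1.50 in WT replicate 2, on pile-ups of 10 and 6 fragments, and the second stood at the 1.25 percentile of its list. At the same promoter the WT CTCF list had no peak, while the KO list of replicate 1 had one (10.5) and that of replicate 2 had none. The SMC1A loss thus rests at 1 of its 2 lists on a peak near the caller's limit. With peaks of −log10 q of 5 or more a different region was lost, the Diaph1 site at chr18:37880034-37880523, beside 502 of 10718 over the genome. With lists of equal length it was the Pcdhgc3 promoter, chr18:37806176-37806615, beside 1146 of 14608. Leaving out any 1 list kept Pcdhgb5 among the lost regions and raised their number to 2. Over the genome the lost regions then ran from 870 of 14859 to 3152 of 20159. Within batch 1 the regions lost and gained numbered 3 and 4, beside 2912 of 19482 and 11394 of 27964 over the genome. Within batch 2 they numbered 3 and 3, beside 6182 of 20451 and 6175 of 20444.

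For CTCF, WT had 15 regions, and 4 of them (26.7%) had no peak in KO, against 18.9% over the genome. Of the 8 regions in both KO lists, 0 were missing from the WT list, against 8.29%. The 4 lay at chr18:37646010-37646397 and chr18:37647254-37647554, ahead of Pcdhga1, at chr18:37837676-37837878, 18184 bp past the start of Pcdhgc5, and at chr18:37879269-37879506, in Diaph1. The peak past the start of Pcdhgc5 lay within the bounds of every gamma gene, not of Pcdhgc5 alone. The −log10 q of the 4 ran from 2.84 to 4.00, so they were among the weaker peaks of the WT list, and none lay at a member's promoter. Without KO replicate 1 the lost regions numbered 8, where 20814 of 38699 were lost over the genome. Without KO replicate 2 there were 17 gained regions, where 25942 of 55113 were gained over the genome. Among the 17 were the promoters of Pcdhgb4, Pcdhga8, Pcdhgb5, Pcdhga9, Pcdhga11 and Pcdhga12.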

How the data were processed

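The 7 peak lists were made per library. Per the submitters' processing notes, the tools were Trimmomatic 1.24, Bowtie2, SAMtools, deepTools, MACS2 and R 4.12, with the mm10 build; no source used here gives their settings or the control used for calling. The deposited columns used are the authors' fold enrichment (a ratio) at the summit, the authors' −log10 p and −log10 q, and, as the other column, the authors' summit offset in bp. No q exceeded 0.0498. The lists hold no read numbers, so depth is not known directly. Each peak's pile-up and background were found by solving the Poisson model of the caller for the deposited fold and −log10 p; all 95 peaks gave a whole pile-up within 0.005 of the deposited −log10 p. The stand-in for depth is the value marking off the lowest 1% of backgrounds among the drawn peaks.

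The members, zones and lists were chosen with earlier results of these data known. Groups follow the genotype and antibody in the labels. Gene positions and strands came from RefSeq tables of GRCm38.p6, the assembly behind mm10; protocadherin starts are the lower coordinate, as all are known to lie on the forward strand, and the 17492 genes with a strand include none of chromosome 18. Zones extend 5 kb beyond the gene starts. Peaks of a protein were merged where they overlapped by 1 bp or more. Lost regions are in every WT list and no KO list, gained ones the reverse. Windows of 1 Mb that averaged at least 5 peaks were tested with limma 3.58.1 (R 4.3.3) on log2((peaks + 0.5) per 1000000 peaks of the list), with a mean-variance trend and Benjamini-Hochberg adjustment over all windows at 0.05; the remaining steps ran in Python 3.11.15 with scipy 1.17.1, pandas 2.3.3 and numpy 2.4.6. Single values were compared with an exact permutation test. The genes named with values are the C-type genes and Pcdhb1, members with a peak in all 7 lists, members lost or gained, the leading region of each zone, and all changed regions; Pcdhgb4, Pcdhga3, Pcdhga8, Pcdhga9, Pcdhga11 and Pcdhga12 were added once their values were known. The labels' batch equals the replicate number, which therefore pairs the samples; same-numbered SMC1A lists deviated from their genotype mean with a correlation of 0.018 over 1264 windows. The steps were tested on simulated data.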

Additional observations from a re-analysis of the deposited data

How the results depend on the processing

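Of 82 recomputed values, 65 kept their direction and their side of the threshold, or stayed within the spread or 1.5 times of a count; 12 moved and 5 changed sign or fell to 0. The SMC1A density stayed negative and short of the threshold under every alternative run, and the replicate block gave -0.192 (limma adjusted p 0.731), so the pairing changed no call there; the lowest adjusted p was 0.279, with peaks of −log10 q of 5 or more (-0.739). The CTCF density was -0.225 with lists of equal length and -0.053 with the median window of each list at 0, and ran from -0.191 to 0.273 with a KO list left out. The share of SMC1A peaks at CTCF, KO minus WT, was 0.0 percentage points with −log10 q of 5 or more and 1.45 with lists of equal length. With 1 list left out, SMC1A regions lost numbered 2 each time and those gained 0 to 4. Over the genome those lost ran from 870 of 14859 to 3152 of 20159, and those gained from 3641 of 17352 to 8787 of 27835. With a KO list left out, CTCF regions lost numbered 4 to 8 and gained 0 to 17. The genome counts were 7105 of 36276 to 20814 of 38699 lost, and 4082 of 21967 to 25942 of 55113 gained. CTCF regions lost numbered 0 with −log10 q of 5 or more, beside 1947 of 24463 over the genome. With lists of equal length there was 1, beside 3117 of 22044. Promoters with SMC1A in all 4 lists numbered 1 of the 58 members with −log10 q of 5 or more, Pcdhgb6, beside 21.5% of protein-coding genes at that setting. The cause of these shifts was not tested. Presence in a list is a threshold on few fragments. The lists therefore cannot tell a lack of binding from binding below detection, and they cannot show a change of height.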

Other observations

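The stretch without SMC1A peaks over the alpha and beta clusters was read against other such stretches, a comparison chosen after the data had been seen. By the number of gene ends inside, 41, it was exceeded by 16 of 35200 stretches. Most genes of 7 of these 16 were olfactory receptors (symbols starting Olfr), and vomeronasal receptors (Vmn), the pheromone sensors, led 2. Of the other 7, keratin (Krt), late cornified envelope (Lce) and defensin (Defa) genes led 3, and predicted gene models with symbols starting Gm, which are not a family, led 4. No test is attached.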
